A study of Marchantia polymorpha with 78 samples.

Results

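Thalli of the liverwort Marchantia polymorpha kept for 12 h in red light were compared with thalli kept for 12 h in far-red light, with 3 poly(A) RNA libraries each, out of 78 libraries in 26 groups. The plants were Tak-1, a male wild-type line, and no transgene or mutant was involved. They were raised from gemmae under constant white light at 23 °C for 8 days, on medium with sucrose, and spent 24 h in darkness before the light treatments began. The red light peaked at 660 nm with 80 to 90 µmol m⁻² s⁻¹, and the far-red light peaked at 730 nm with 30 to 40 µmol m⁻² s⁻¹, so wavelength and photon flux differ together and cannot be told apart. Each library pooled 3 plants, and the labels state that the 3 replicates of a treatment shared a plate, so plate and light cannot be told apart either. Of 19355 genes in the table, the 13054 with at least 1 TPM (an abundance corrected for transcript length and scaled to a fixed sum per library) in 3 or more of all libraries were tested. In these bulk samples, fewer cells of a type and less RNA per cell cannot be told apart.

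Phytochromes are photoreceptors that switch between a red-absorbing form and a far-red-absorbing form. Red light builds up the far-red-absorbing, signalling form, and far-red light returns most of it to the red-absorbing form. M. polymorpha has a single phytochrome gene, MpPHY, and a single gene for the phytochrome-interacting basic helix-loop-helix factor (PIF), named MpBHLH6 in the name table used here. In land plants generally, active phytochrome lowers the level and activity of PIF proteins and restrains the COP1 ubiquitin ligase. In M. polymorpha, light enriched in far-red makes the thallus grow upright and narrow and, in long days, starts the formation of sexual branches. Red light also drives photosynthesis far better than far-red light of this wavelength.

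At 12 h, 2486 genes differed between red and far-red light, which is 19.0% of those tested. A gene counts as differing where limma's Benjamini-Hochberg adjusted p was under 0.05 and the difference in log2(TPM + 1) was at least 1 in size; all log2 values are red minus far-red on this scale unless stated otherwise, and the scale understates changes of genes near 0. In red light 1225 genes (9.38%) were higher and 1261 (9.66%) lower. The difference reached 2 in size for 523 genes, and the median over all tested genes was −0.04. In 2472 of the 2486 genes the 3 red values and the 3 far-red values did not overlap. The genes were called by the same difference, which favours groups without overlap, and the share over all tested genes was not counted. The genes higher in red held 21.3% ± 1.1 of all TPM in red and 6.28% ± 0.31 in far-red libraries (SD, n = 3 each), and the genes lower in red held 4.77% ± 0.1 in red and 15% ± 0.018 in far-red libraries. These shares describe genes picked by the same difference.

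Between 15241 and 15373 genes were above 0 TPM in each of the 6 libraries. The 50 genes of highest TPM held 13.6%, 14.84% and 16.9% of TPM in red and between 14.41% and 15.65% in far-red libraries. Across genes, libraries of the same light correlated with r of at least 0.9939, and red with far-red libraries with r between 0.9117 and 0.9174; genes are not independent replicates. The 156 genes named by rule include 131 called genes, of which 130 had groups that did not overlap; the rule took large differences and, for the top genes, groups without overlap, so this describes the choice. For 130 of the called genes limma's adjusted p was at most 1.26e-06, and the exception was MpERF23, at 0.0217.

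**Figure D1:**
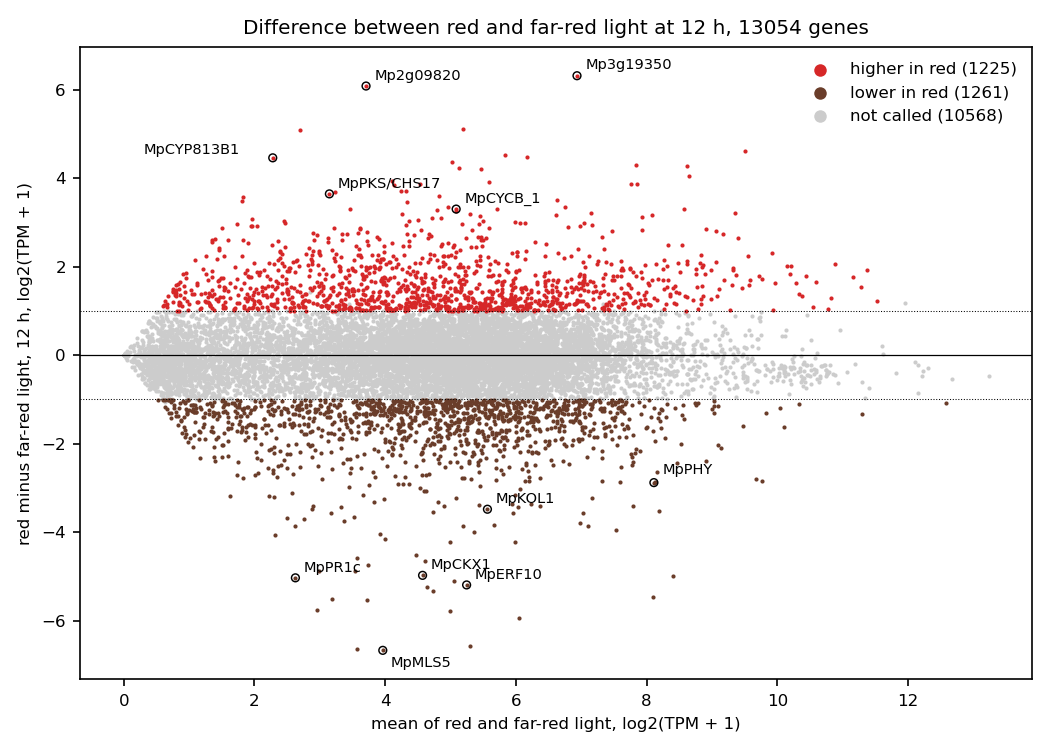
The red minus far-red difference at 12 h (vertical, log2(TPM + 1)) against the mean level in both lights (horizontal, log2(TPM + 1)) for each tested gene, with the 1225 genes higher and the 1261 lower in red coloured and some named genes ringed. Differences run from −6.67 (MpMLS5) to 6.31 (Mp3g19350) and occur at all but the lowest levels; the dotted lines stand at a difference of 1 in either direction.

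The largest positive differences included genes of flavonoid synthesis, iron uptake, sugar metabolism, ascorbate recycling and cell division. MpCYP813B1, a cytochrome P450 gene, had 21.7, 22.3 and 21.3 TPM in red, against 0.0562, 0.052 and 0 TPM in far-red libraries (log2 difference 4.46, SE 0.14). It was thus near 0 in all 3 far-red libraries. MpPKS/CHS17, of the chalcone synthase family that opens flavonoid synthesis, had 28.4, 30.5 and 31.8 TPM in red, against 1.29, 1.87 and 1.36 TPM in far-red light (3.64, SE 0.17). MpFRO2, whose Arabidopsis namesake is a ferric reductase of iron uptake, had 69.4, 59.3 and 68.9 TPM in red, against 4.58, 5.41 and 5.13 TPM in far-red light (3.47, SE 0.12). The 2 lights were far apart for both genes relative to the spread within either.

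MpFBA4, a fructose-bisphosphate aldolase gene, had 165, 154 and 172 TPM in red and 14.7, 15.9 and 16.4 TPM in far-red light (3.30, SE 0.06). MpCYCB_1, a B-type cyclin gene whose product acts at mitosis, had 118, 100 and 99.2 TPM in red and 9.56, 10.2 and 9.7 TPM in far-red light (3.30, SE 0.11). MpMDHAR3, encoding a monodehydroascorbate reductase that regenerates ascorbate, had 131, 130 and 126 TPM in red and 13.5, 13.4 and 13.8 TPM in far-red light (3.15, SE 0.08). In each of these genes every red library was several-fold above every far-red library. The remaining members of the 15 largest positive differences were MpCYP704-like5 (3.59), the fatty acid elongase gene MpELO2 (3.27), MpPKS/CHS14 (3.19), the dirigent gene MpDIR2 (2.91), the dioxygenase gene MpDOXC28 (2.85), the polyphenol oxidase genes MpPPO17 (2.83) and MpPPO9 (2.71), MpLEA-like49 (2.79) and MpCDKB (2.73), which encodes the plant-specific kinase of mitotic entry. MpLEA-like49 had 34.2, 42.2 and 24.4 TPM in red, against 3.26, 2.99 and 5.9 TPM in far-red light.

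Among genes without a symbol, the largest positive differences were those of Mp3g19350 and Mp2g09820. Mp3g19350 had 1246, 967 and 1063 TPM in red, against 13.2, 11.8 and 13 TPM in far-red light (6.31, SE 0.25). Mp2g09820 had 112, 103 and 101 TPM in red and 0.225, 0.78 and 0.794 TPM in far-red light (6.08, SE 0.17). Their darkness means at 12 h were 37.1 and 1.29 TPM, far below red. Mp3g19350 was lower in far-red light than in darkness (log2 far-red minus darkness −1.47). For Mp2g09820 that contrast (−0.50) was not called, and its far-red and darkness values overlapped at low levels.

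**Figure D2:**
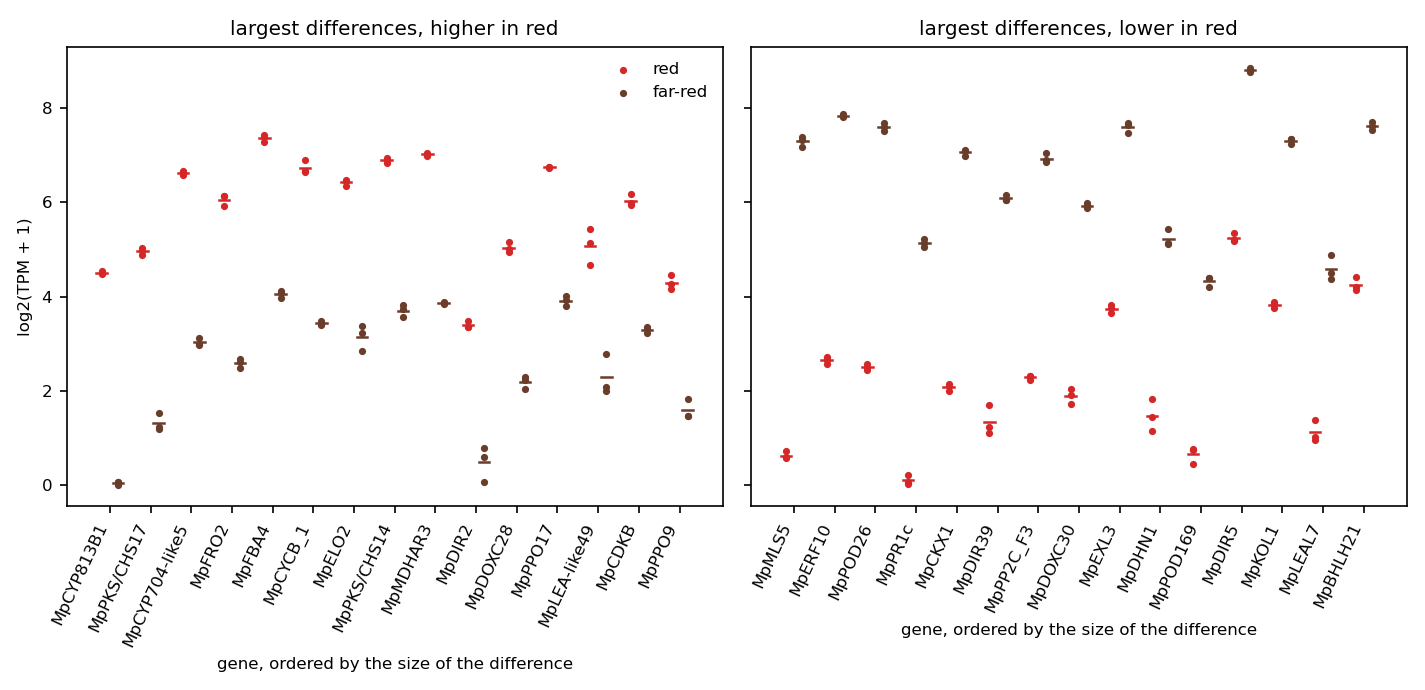
Level in each library (log2(TPM + 1), red left and far-red right of each gene; bars are means of 3 libraries) of the 15 genes with a symbol that had the largest positive (left panel) and the 15 with the largest negative differences (right panel). Genes were chosen for red and far-red values that do not overlap, so the gap in each is set by the choice.

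The largest negative differences included genes of hormone turnover, signalling and cell wall proteins. MpMLS5 had 0.51, 0.648 and 0.486 TPM in red, against 143, 159 and 166 TPM in far-red light (−6.67, SE 0.14). MpERF10, of the ethylene response factor family, had 5.28, 4.98 and 5.6 TPM in red, against 228, 233 and 223 TPM in far-red light (−5.19, SE 0.11). MpCKX1, encoding a cytokinin oxidase that degrades cytokinin, had 3.33, 3.43 and 2.98 TPM in red, against 136, 135 and 125 TPM in far-red light (−4.97, SE 0.12). In all 3 genes the red values lay close together at a low level and the far-red values close together at a high level.

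MpPR1c, of the pathogenesis-related protein 1 family, differed from these in where darkness stood. It had 0.161, 0.0266 and 0.0563 TPM in red, against 32, 36.4 and 34.4 TPM in far-red light (−5.03, SE 0.20), and its darkness mean was 0.937 TPM. For MpPP2C_F3, a protein phosphatase gene, darkness lay at the far-red level: it had 4, 3.96 and 3.69 TPM in red, 117, 115 and 131 TPM in far-red light and a darkness mean of 117 TPM (−4.64, SE 0.10). MpKOL1, an ent-kaurene oxidase-like gene of gibberellin precursor synthesis, had 13.3, 13.8 and 12.5 TPM in red, against 162, 161 and 149 TPM in far-red light (−3.48, SE 0.09), with a darkness mean of 38.3 TPM. For this gene darkness lay between both lights. The others of the 15 were the peroxidase genes MpPOD26 (−5.09) and MpPOD169 (−3.68), the dirigent genes MpDIR39 (−4.74) and MpDIR5 (−3.56), the dioxygenase gene MpDOXC30 (−4.04), MpEXL3 (−3.84), the dehydrin gene MpDHN1 (−3.76), MpLEAL7 (−3.47) and MpBHLH21 (−3.37). Without a symbol, Mp7g07350 (0.295, 0.213 and 0.0845 TPM in red, against 108, 119 and 127 TPM in far-red light) and Mp3g11280 (3.35, 2.51 and 3.33 TPM in red, against 363, 384 and 401 TPM in far-red light) had the largest negative differences, of −6.63 and −6.57.

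Of 20 tested light receptor and light signalling genes, 9 were lower in red, 1 was higher and 10 were not called, against 9.66% lower and 9.38% higher over all tested genes. The list's median difference was −0.63. MpPHY itself had 111, 95 and 97.1 TPM in red, against 839, 734 and 675 TPM in far-red light (−2.88, SE 0.12), with no overlap. MpFHY1, whose Arabidopsis namesake carries light-activated phytochrome A into the nucleus, had 10.6, 7.85 and 8.65 TPM in red, against 64.9, 62.2 and 63.1 TPM in far-red light (−2.69, SE 0.09). MpCRY, the blue-light receptor cryptochrome gene, had 85.3, 75.4 and 79.5 TPM in red, against 506, 451 and 435 TPM in far-red light (−2.52, SE 0.08). The receptors of red and of blue light were thus both several-fold lower in red libraries.

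MpCOP1 had 34.9, 35.5 and 33.3 TPM in red, against 137, 130 and 122 TPM in far-red light (−1.88, SE 0.07). MpPHOT, the gene of phototropin, a blue-light receptor for chloroplast movement, had 160, 143 and 149 TPM in red, against 534, 497 and 464 TPM in far-red light (−1.72, SE 0.06). MpBHLH6, the PIF gene, had 128, 110 and 117 TPM in red, against 310, 281 and 283 TPM in far-red light (−1.30, SE 0.07). These 3 genes had no red value near a far-red value. MpNPH3, whose namesake relays phototropin signals (−1.18), MpNCH1, a chloroplast movement gene (−1.03), and MpFKF, whose protein acts with GIGANTEA in far-red-dependent sexual branch formation (−1.02), were nearer the threshold, and MpFKF and MpNCH1 missed it with TMM (trimmed mean) scaling, at −0.98 and −0.997. MpFKF also missed it without red replicate 3 (−0.96) and without far-red replicate 1 (−0.95).

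The only member higher in red was MpLOVA, with 41.4, 37.8 and 35.7 TPM in red and 16.7, 15.2 and 15.3 TPM in far-red light (1.23, SE 0.10). Not called were the COP1 partner gene MpSPA1 (−0.28), the genes MpDET1 (−0.75), MpDDB1 (−0.07) and MpCOP10 (−0.48), whose Arabidopsis namesakes repress light responses as a complex, the ultraviolet-B receptor gene MpUVR8 (0.23) and MpRUP (−0.50), whose namesake turns that receptor off. The chromophore synthesis genes MpHY1 (0.35) and MpHY2 (−0.16), MpEID1 (−0.26) and MpCRY-DASH (0.02) were not called either. Darkness at 12 h put these differences on different sides. The darkness mean of MpPHY was 332 TPM, below far-red (log2 far-red minus darkness 1.17) and above red (red minus darkness −1.70). For MpFHY1 it was 65.4 TPM, at the far-red level (far-red minus darkness −0.04, red minus darkness −2.73). For MpNCH1, at 297 TPM, darkness lay above both lights. These 2 contrasts share the darkness libraries with each other and the light libraries with the comparison above.

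**Figure D3:**
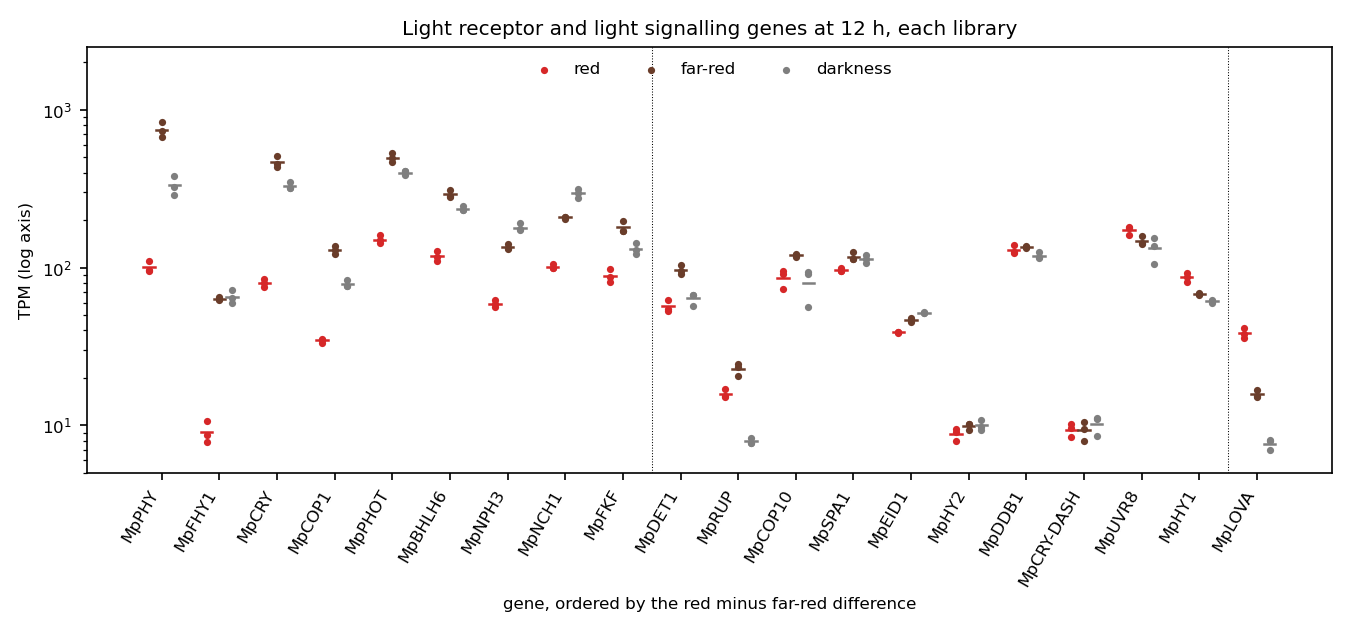
TPM (log axis) of 20 light receptor and signalling genes in the 3 red, 3 far-red and 3 darkness libraries at 12 h, ordered by the red minus far-red difference; bars are means, and dotted lines divide the 9 genes lower in red, the 10 not called and MpLOVA, which was higher. MpPHY, MpFHY1 and MpCRY have the widest gaps between red and far-red.

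Clock genes were lower in red or not called. Of 6 tested clock genes 2 were lower in red and 0 higher, with a median of −0.64. Over all tested genes 9.66% were lower and 9.38% higher. MpPRR, a pseudo-response regulator gene, had 28.9, 22.8 and 24.0 TPM in red, against 222, 179 and 163 TPM in far-red light (−2.84, SE 0.11). MpTOC1 had 123, 110 and 113 TPM in red, against 256, 244 and 238 TPM in far-red light (−1.09, SE 0.07). Neither gene had overlapping groups. MpGI (−0.70) and MpELF3 (−0.59) were lower by less than the threshold, and MpELF4 (0.01) and MpXCT (0.47) were not called. Of the 6 B-box zinc finger genes, which in other plants relay light and clock signals, MpBBX1 (−2.17) and MpBBX6 (−1.02) were lower and 0 were higher. MpBBX6 missed the fold threshold with TMM scaling (−0.99), without red replicate 3 (−0.93) and without far-red replicate 3 (−0.97).

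Of 12 tested growth-phase and gametangium genes 1 was lower and 0 were higher (median −0.09), which is 8.33% called, against 19.0% of all tested genes; in a list of this size that share moves by many percent with 1 gene. The lower member was the MADS-box gene MpMADS1, with 15, 14.3 and 14.7 TPM in red, against 49.3, 47.2 and 45.1 TPM in far-red light (−1.62, SE 0.08). Among the SQUAMOSA promoter-binding protein-like genes, MpSPL2 (−0.88) and MpSPL3 (−0.53) had negative values and MpSPL1 (0.14) and MpSPL4 (−0.16) lay near 0. MpLFY stood at −0.29, MpMADS2 at 0.04, and MpRKD, an RWP-RK factor of gamete precursors and gemma cups, at 0.49. The male germ line genes MpDUO1, MpMID, MpGCS1 and MpGEX2 had between 0.342 and 6.55 TPM in the 6 libraries and were not called. MpBNB, planned as a marker of male organs, is not in this list.

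Of 19 tested cell cycle regulators, 9 were higher in red, 1 was lower and 9 were not called, with a median of 0.49, against 9.38% higher and 9.66% lower over all tested genes. Besides MpCYCB_1 and MpCDKB, MpCYCA, an A-type cyclin gene of DNA replication, had 34.1, 31.5 and 30.5 TPM in red, against 7.17, 7.25 and 6.24 TPM in far-red light (2.07, SE 0.12). MpCYCD_1, a D-type cyclin gene of entry into the cycle, had 59.3, 52.7 and 51 TPM in red, against 19.3, 16.4 and 14.1 TPM in far-red light (1.66, SE 0.10). Its paralog MpCYCD_2 was the member lower in red, with 11.7, 12.1 and 10.9 TPM in red, against 27, 27 and 29.3 TPM in far-red light (−1.20, SE 0.10). The D-type cyclin genes therefore had opposite signs. MpCDC25_1 (2.60), MpDEL1 (1.55), MpCDC20_1 (1.46), MpCDC25_2 (1.24) and MpWEE1 (1.23) completed the higher group. The constitutive kinase gene MpCDKA (0.13), MpE2F (0.46), MpRBR, the retinoblastoma-related repressor of entry into replication (−0.69), and the inhibitor gene MpKRP (−0.41) were not called. The members outside the rule for named genes in this and the next paragraphs were chosen after their values were seen.

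Of 34 tested histone and replication licensing genes 19 were higher and 1 lower, against 9.38% and 9.66% of all tested genes, and the median was 1.12. MpH3.1c had 89.6, 96.4 and 89.6 TPM in red, against 16.8, 14.6 and 17.1 TPM in far-red light (2.44, SE 0.11). MpH2B.4 had 25.9, 26.2 and 24 TPM in red, against 5.03, 3.9 and 4.54 TPM in far-red light (2.27, SE 0.12). All 5 MpH3.1 genes were between 1.44 and 2.44. MpMCM2 (1.12), MpMCM3 (1.42), MpMCM5 (1.12), MpMCM6 (1.38), which encode helicase subunits that license replication origins, and MpMCM10 (1.45) were higher. MpH2A.X.2, a histone variant gene, was the lower member, with 10.7, 10.2 and 10.7 TPM in red and 28.3, 30.3 and 30.8 TPM in far-red light (−1.42, SE 0.09). Histone genes of 1 class have near-identical copies, so how reads were shared among copies is uncertain.

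Of 65 tested phenylpropanoid and flavonoid genes 17 were higher and 5 lower (median 0.51), against 9.38% higher and 9.66% lower over all tested genes. MpF3H, a flavanone hydroxylase gene, had 401, 385 and 374 TPM in red, against 100, 95.9 and 99.1 TPM in far-red light (1.97, SE 0.06). MpPKS/CHS2 had 347, 335 and 317 TPM in red, against 97.8, 94.4 and 96.0 TPM in far-red light (1.78, SE 0.06). MpLAR-like5 had 192, 185 and 189 TPM in red, against 40.3, 37.1 and 40.5 TPM in far-red light (2.23, SE 0.06). These 3 abundant genes were thus several-fold higher in every red library. Further chalcone synthase family members were higher, with MpPKS/CHS10 at 2.52, MpPKS/CHS15 at 2.19 and MpPKS/CHS23 at 1.76, as was MpCHIL2 at 1.85, and MpPKS/CHS-like1 was lower (−1.17). The phenylalanine ammonia lyase genes, which open the phenylpropanoid pathway, were split, with MpPAL-like2 (1.56) and MpPAL1 (1.26) higher and MpPAL10 (−1.30) and MpPAL8 (−1.27) lower. This is a family of close paralogs, so values of single members are uncertain.

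The other large families of phenolic metabolism were split between the directions. Of 36 tested polyphenol oxidase genes 10 were higher and 4 lower, and of 116 class III peroxidase genes 28 were higher and 12 lower. Over all tested genes 9.38% were higher and 9.66% lower, so the lower shares of both lists were near that of all genes. Of 42 dirigent genes, whose proteins steer the coupling of phenolic radicals, 8 were higher and 6 lower. Where the mean had to be at least 5 TPM, 9 peroxidase genes were higher and 11 lower, and 3 dirigent genes were higher and 3 lower, so the excess of higher peroxidase genes did not hold at higher levels. MpPPO17 had 106, 107 and 104 TPM in red, against 14.2, 15.1 and 12.9 TPM in far-red light, while MpPPO32 had 18.5, 15.2 and 16.4 TPM in red, against 69.2, 68 and 74.9 TPM in far-red light (−2.02, SE 0.10). Among the peroxidases MpPOD126 (2.62) and MpPOD109 (2.60) were the highest, and MpPOD26 had 4.96, 4.44 and 4.67 TPM in red, against 182, 192 and 205 TPM in far-red light. The summed TPM of the peroxidase list had a mean of 1990 TPM in red and 2540 TPM in far-red light.

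Of 30 tested genes that remove reactive oxygen, 10 were higher in red, 1 was lower and 19 were not called, with a median of 0.60, against 9.38% higher and 9.66% lower over all tested genes. MpGPX2, a glutathione peroxidase gene, had 57, 61.6 and 66 TPM in red, against 15.1, 14.7 and 15.1 TPM in far-red light (1.97, SE 0.07). The glutathione reductase genes MpGR2 (1.08), MpGR3 (1.41) and MpGR4 (1.21), the superoxide dismutase genes MpSOD1 (1.22) and MpSOD5 (1.34), the ascorbate peroxidase genes MpAPX3 (1.15) and MpAPX4 (1.11) and the peroxiredoxin gene MpPRX3 (1.47) were higher as well. The catalase gene MpCAT4 was the lower member, with 26.4, 24.6 and 22.6 TPM in red, against 104, 122 and 106 TPM in far-red light (−2.13, SE 0.14). Of 32 glutathione transferase genes 5 were higher, led by MpGST17 (2.24), and 2 lower, led by MpGST16 (−2.02). Of 6 heat shock protein genes MpHSP90-2 (1.27) and MpHSP90-4 (1.12) were higher and 0 were lower.

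Of the genes of plastid pigment synthesis, few passed the fold threshold, in lists of few members set against 19.0% called over all tested genes. None of 6 tested chlorophyll and haem synthesis genes passed the fold threshold (median 0.51). MpCHLD (0.98), MpCHLI1/2-like (0.94) and MpGUN5 (0.67), which encode the subunits of magnesium chelatase, nevertheless had limma adjusted p-values of at most 1.44e-08. The same held for MpHY1, the chromophore synthesis gene already named with the light receptor genes. MpCHLD had 135, 122 and 123 TPM in red, against 63.1, 62 and 65.6 TPM in far-red light. MpGUN4, the chelatase activator gene, stood at −0.09. The groups of the 3 subunit genes did not overlap. Of 18 plastid isoprenoid and carotenoid genes 2 were lower and 0 higher. With TMM scaling 1 gene of each of these lists was called higher. MpABA4, a gene of neoxanthin synthesis in Arabidopsis, had 19.1, 26.8 and 17.3 TPM in red, against 134, 139 and 145 TPM in far-red light (−2.69, SE 0.08). MpDXS2, encoding a form of the entry enzyme of the plastid isoprenoid pathway, had 13.8, 14 and 14.8 TPM in red, against 56.8, 53.4 and 50.9 TPM in far-red light (−1.84, SE 0.10), while its paralog MpDXS1 stood at −0.36. The later pathway genes MpMDS (0.996), MpHDR (0.93) and MpCMK (0.77) had positive values that were not called. Of 10 Calvin cycle, aldolase and sugar transport genes, MpFBA4 and the phosphoglucomutase gene MpPGM1 (1.17) were higher and 0 were lower. None of 8 genes of plastid sigma factors, flavodiiron proteins and terminal oxidases was called (median 0.35). No gene of the photosystems or their antennae carries a symbol in the name table, so those genes are not described.

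Of 16 tested gibberellin-related genes 7 were lower in red, 1 was higher and 8 were not called, against 9.66% lower and 9.38% higher over all tested genes, and the median was −0.78. M. polymorpha makes gibberellin precursors, but lacks the gibberellin receptor of vascular plants. Beside MpKOL1, the next enzymes of the pathway, the ent-kaurenoic acid oxidase-like genes MpKAOL1 (−1.34) and MpKAOL2 (−1.18), were lower. MpKAOL1 had 6.76, 7.02 and 7.18 TPM in red, against 18.2, 18 and 21.5 TPM in far-red light. MpKOL3 was the member higher in red, with 5.04, 5.03 and 4.48 TPM in red and 1.01, 1.25 and 0.964 TPM in far-red light (1.5, SE 0.19). The receptor-like genes MpGID1L6 (−2.91), MpGID1L4 (−2.21) and MpGID1L7 (−1.04) and MpGID2 (−1.10) were lower, whereas MpDELLA (0.04), the gene of the growth repressor, was not called.

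Of 30 tested cytokinin, ethylene and abscisic acid genes 7 were lower in red and 0 higher (median −0.34). Over all tested genes 9.66% were lower and 9.38% higher. The list had 23.3% called, near the 19.0% of all tested genes. MpLOG, encoding a cytokinin-activating enzyme, had 63.3, 59.6 and 54.3 TPM in red, against 428, 445 and 407 TPM in far-red light (−2.83, SE 0.06). With MpCKX1, the genes for cytokinin activation and for cytokinin breakdown were both lower in red. The cytokinin receptor gene MpCHK2 (−1.30) and the response regulator gene MpRRA (−1.83) were lower too. For abscisic acid, the synthesis gene MpNCED (−1.32) and the breakdown gene MpCYP707A, with 0.912, 1.17 and 0.648 TPM in red and 9.56, 10.1 and 10.8 TPM in far-red light (−2.55, SE 0.29), were both lower. MpEIN2, a central gene of ethylene signalling, stood at −1.22.

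Of 33 tested auxin genes 8 were lower in red and 2 higher (median −0.26), against 9.66% lower and 9.38% higher over all tested genes. The auxin exporter gene MpPIN4 had 63.5, 68.8 and 59.5 TPM in red, against 248, 240 and 229 TPM in far-red light (−1.89, SE 0.06). The auxin receptor gene MpTIR1 had 85.9, 78.3 and 71.6 TPM in red, against 297, 280 and 283 TPM in far-red light (−1.86, SE 0.08). MpARF1, the activating auxin response factor gene, was lower by less (−1.10). Receptor, exporter and response factor thus shared a direction, as did MpPIN1 (−1.19). The small auxin-up RNA genes went both ways: MpSAUR9 (−2.23), MpSAUR10 (−1.72) and MpSAUR2 (−1.03) were lower, and MpSAUR4 had 38.6, 36.6 and 35.5 TPM in red, against 6.41, 7.77 and 6.92 TPM in far-red light (2.24, SE 0.12). The call of MpPIN3 (1.06), the other member higher in red, ended without far-red replicate 2, at 0.95.

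Several transcription factor families had members lower in red. Of 13 tested WRKY genes 6 were lower and 0 higher (median −0.77), against 9.66% lower and 9.38% higher over all tested genes. MpWRKY8 had 7.59, 7.08 and 7.8 TPM in red, against 69.4, 70.6 and 70.9 TPM in far-red light (−3.07, SE 0.08), and MpWRKY14 stood at −2.58. Of 36 basic helix-loop-helix genes, which include MpBHLH6, 11 were lower and 0 higher, led by MpBHLH21 with 20.5, 16.6 and 17.5 TPM in red, against 208, 196 and 185 TPM in far-red light. Of 17 ERF genes 4 were lower and 2 higher. The higher ones were MpERF15 (1.17) and MpERF23, whose red values of 0.993, 4.26 and 5.55 TPM and far-red values of 0.278, 0.588 and 1.2 TPM overlapped (1.31, SE 0.53); its call ended without red replicate 2 (1.13), without red replicate 3 (0.98) and without far-red replicate 1 (1.13). Of 45 MYB genes 3 were higher and 2 lower, which is 11.1% called, below the 19.0% of all tested genes. MpR2R3-MYB9 had 121, 113 and 102 TPM in red, against 513, 499 and 505 TPM in far-red light (−2.17, SE 0.06).

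Of 64 tested LEA and dehydrin genes, whose proteins protect cells in drying, 18 were lower and 4 higher (median −0.39), or 10 lower and 3 higher with a pseudocount of 5 TPM. With a pseudocount of 1 TPM, 9.66% of all tested genes were lower and 9.38% higher. MpDHN1 had 1.72, 2.55 and 1.21 TPM in red, against 34, 33.9 and 42 TPM in far-red light, and its darkness mean was 79.7 TPM. Of 13 lipoxygenase genes 4 were lower and 0 higher (median −0.59), with MpLOX10 at 25.3, 21.8 and 25.6 TPM in red, against 113, 129 and 124 TPM in far-red light (−2.29, SE 0.09). Of 21 autophagy genes 4 were lower and 0 higher (median −0.51), which is 19.0% called, the same as over all tested genes. Among them MpATG18c stood at −1.36 and MpATG8b, a gene of the ubiquitin-like protein that marks autophagosomes, at −1.14. Of 16 pathogenesis-related genes 4 were lower and 2 higher (median 0.02). Pentatricopeptide repeat genes, which act in organelle RNA processing, were rarely called, with 1 higher and 3 lower of 71, and the higher one, MpPPR_64, was called at 1.06 with all libraries and not without red replicate 1 (0.96).

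Of 71 tested genes of wall hydrolases, esterases and lyases 17 were higher and 4 lower (median 0.42), or 11 higher and 2 lower with a pseudocount of 5 TPM. With a pseudocount of 1 TPM, 9.38% of all tested genes were higher and 9.66% lower. MpGH17.2, of a glycosyl hydrolase family that includes β-glucanases, had 54.5, 55.9 and 57.8 TPM in red, against 11.2, 11.4 and 9.53 TPM in far-red light (2.29, SE 0.10). Of 36 genes with expansin and EXL symbols 6 were higher and 4 lower; the name table does not say what the EXL symbol stands for, so whether EXL genes belong with the expansins is uncertain. MpExpansin15, of the wall-loosening expansins, had 376, 373 and 382 TPM in red, against 95.8, 103 and 99.5 TPM in far-red light (1.91, SE 0.08), while MpEXL3 had 12.6, 11.6 and 13.2 TPM in red, against 197, 203 and 175 TPM in far-red light. Wax and cutin genes were even, at 4 higher and 4 lower of 23. MpCER1, a gene of alkane wax synthesis, had 95.7, 95.9 and 92 TPM in red, against 19.9, 19.2 and 18.5 TPM in far-red light (2.24, SE 0.06), and MpCER3b was lower (−1.29). Of 39 cupin genes 5 were higher, among them MpCupin83 with 776, 741 and 758 TPM in red and 129, 132 and 142 TPM in far-red light (2.49, SE 0.08), and 4 were lower. The cupin list thus had 23.1% called, near the 19.0% of all tested genes.

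Of 7 ammonium transporter genes 3 were higher and 0 lower, and every member had a positive difference, from 0.35 to 1.78. MpAMT1.2 had 158, 155 and 146 TPM in red, against 46.1, 49.9 and 50.3 TPM in far-red light (1.63, SE 0.09). Of 22 genes of the nitrate and peptide transporter (NPF) family 3 were higher, led by MpNPF34 (2.46), and 5 lower, led by MpNPF19 (−1.70). Of 69 ABC transporter genes 8 were higher and 7 lower, and of 85 cytochrome P450 genes 12 were higher and 10 lower, both near the shares over all tested genes of 9.38% higher and 9.66% lower. Of 15 terpene synthase genes 4 were higher, led by MpMTPSL-like (2.68), and 3 lower, led by MpTPS3 (−2.71).

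Markers of specialised cells moved in part. Of 5 oil body cell markers, genes of the liverwort cells that store terpenes and phenolics, 3 were higher in red and 0 lower, or 1 higher where the mean had to be at least 5 TPM. In the main fit 9.38% of all tested genes were higher and 9.66% lower. MpABCG1 had 36.2, 28.3 and 31.8 TPM in red, against 7.87, 6.34 and 5.05 TPM in far-red light (2.17, SE 0.13). MpR2R3-MYB2 had 11, 9.13 and 10.1 TPM in red and 2.05, 1.46 and 2.47 TPM in far-red light (1.90, SE 0.17), and MpSYP12B stood at 1.22, or 0.61 and no longer called with a pseudocount of 5 TPM. The identity factor genes MpC1HDZ (0.25) and MpERF13 (0.45) were not called. The summed level of the 5 markers was 112.5 to 134.6 TPM in red, 62.01 to 79.38 TPM in far-red light and 50.83 to 66.25 TPM in darkness, and no marker was at 0 in the light libraries. Their part in the differences of terpene, dirigent and phenolic genes above was not tested. Of 6 markers of gemma cups, air chambers and male organs 5 were tested: the gemma cup factor gene MpGCAM1 was higher (8.58, 8.01 and 8.62 TPM in red, against 3.12, 2.39 and 2.92 TPM in far-red light; 1.31, SE 0.15), and MpKAI2A (−0.17), the air chamber gene MpNOP1 (−0.38), MpDUO1 (0.03) and MpMID (−0.03) were not called. These 6 summed to 87.77 to 95.95 TPM in red and 102 to 115.8 TPM in far-red light. Planned markers of rhizoids and MpBNB are not among these 6 and are not described. MpPRM, a protamine-like gene of sperm, was at most 0.183 TPM in any library.

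**Figure D4:**
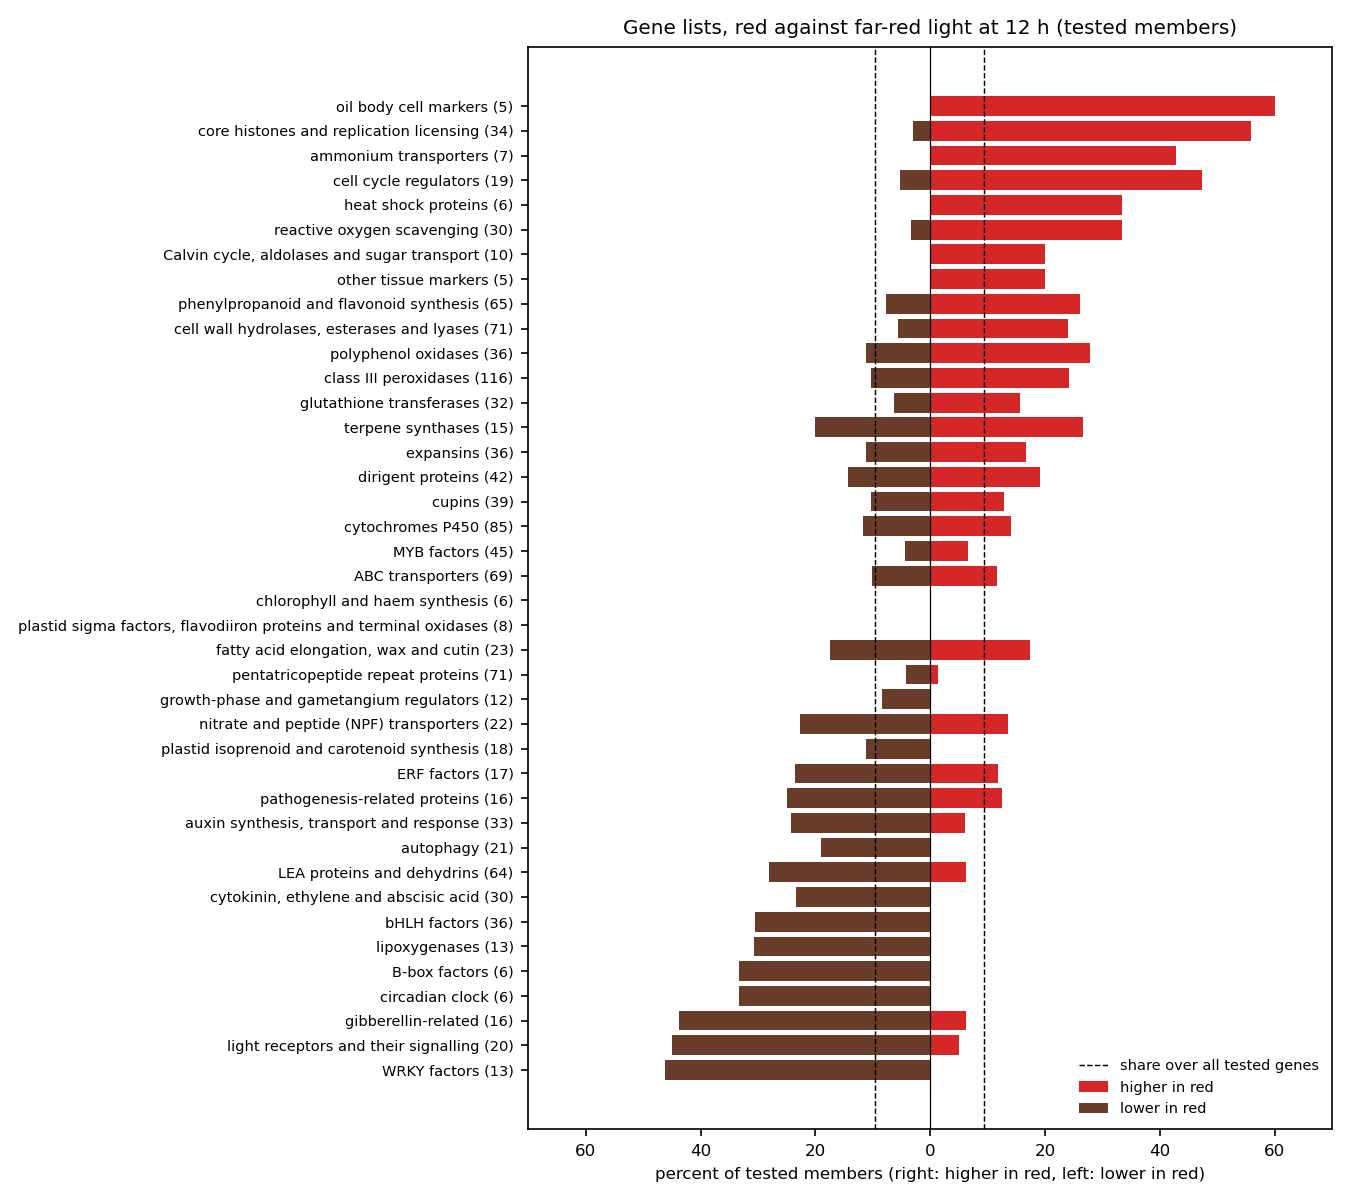
Percent of the tested members of each gene list that were higher in red (right) or lower in red (left) than in far-red light at 12 h, with the number tested in brackets; dashed lines give the shares over all tested genes, 9.38% and 9.66%. Lists far from the dashed lines on the lower side include WRKY (6 of 13), light receptor (9 of 20) and gibberellin-related genes (7 of 16). On the higher side they include histone and licensing genes (19 of 34) and cell cycle regulators (9 of 19). Ammonium transporters (3 of 7) and oil body markers (3 of 5) are also far on the higher side. Small lists move by many percent with 1 gene.

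Differences at 12 h were then set beside the same comparison at the other times, which used other libraries. The red minus far-red comparison called 208 genes at 30 min (1.59% of those tested), 733 at 60 min (5.62%), 2104 at 180 min (16.1%), 2486 at 12 h and 2949 at 24 h (22.6%). At 180 min 7.22% were higher and 8.90% lower in red, and at 24 h 9.98% were higher and 12.6% lower. Of the genes higher in red at 12 h, 842 were also higher at 24 h, which is 68.7% of the 12 h list and 64.6% of the 24 h list, and 544 were higher at 180 min (44.4% and 57.7%). Of the genes lower at 12 h, 996 were lower at 24 h (79% and 60.5%) and 784 at 180 min (62.2% and 67.5%). Opposite calls were few, at 10 and 2 genes for 180 min and 2 and 4 genes for 24 h. Called at all 5 times were 40 genes in the higher and 43 in the lower direction, including MpFRO2, MpPKS/CHS14, MpERF10, MpCKX1 and MpBHLH21.

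The change of the difference with time was tested directly. Between 180 min and 12 h it changed in 971 genes (7.44% of those tested; 4.93% up and 2.51% down), and between 12 h and 24 h in 541 genes (4.14%; 1.86% up and 2.28% down), at the same thresholds in limma. For 79 of the 1225 genes higher at 12 h the difference was larger at 12 h than at both 180 min and 24 h (0.605% of all tested genes), and the same held for 37 of the 1261 lower genes (0.283%). Of these, 19 and 9 genes carry a symbol. The higher ones included 4 of 19 cell cycle regulators, MpCYCB_1, MpCDKB, MpCDC25_1 and MpCDC20_1, and 3 polyphenol oxidase genes. The lower ones included 5 LEA genes, MpPRR and MpBBX1.

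The courses of MpCYCB_1 and MpCDKB differed between the lights. MpCYCB_1 at 180 min had 9.24, 9.05 and 11.9 TPM in red, against 13.1, 13.6 and 13.1 TPM in far-red light, and at 24 h it had 80, 76.2 and 73.3 TPM in red, against 35.9, 33 and 35.9 TPM in far-red light. The red level had thus gone up by 12 h and the far-red level only at 24 h. MpCDKB followed the same course, with 55.2, 48.7 and 46.3 TPM in red and 25.7, 24.6 and 27.7 TPM in far-red light at 24 h. In darkness at 24 h MpCYCB_1 had 3.42, 2.5 and 2.28 TPM. Across the replication list the median difference was 0.89 at 180 min, 1.12 at 12 h and 0.43 at 24 h.

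MpBBX1 and MpPRR were lower in red at 12 h than at any other time. MpBBX1 at 180 min had 178, 171 and 184 TPM in red, against 128, 126 and 125 TPM in far-red light. At 12 h it had 7.24, 6.57 and 6.53 TPM in red, against 36.5, 31.4 and 34.2 TPM in far-red light, and at 24 h 77.2, 72.9 and 71.6 TPM in red, against 58.9, 52.7 and 55.6 TPM in far-red light. Red was thus above far-red at 180 min and 24 h and below it at 12 h, and both lights had their lowest level at 12 h. MpPRR at 180 min had 288, 312 and 334 TPM in red, against 407, 386 and 369 TPM in far-red light, and at 24 h 86.7, 85.7 and 69.9 TPM in red, against 192, 204 and 209 TPM in far-red light. MpPRR was therefore below far-red at all of 180 min, 12 h and 24 h, by most at 12 h.

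At 12 h MpCYP813B1 was also high in white light (mean 14.6 TPM) and blue light (8.16 TPM), against 0.0329 TPM in darkness. Its difference between red and far-red light was largest at 12 h. In red light MpCYP813B1 had 1.16, 2.13 and 1.18 TPM at 180 min and 0.239, 1.03 and 0.691 TPM at 24 h. It had at most 0.419 TPM in any far-red library at the 5 times. MpPHY had a difference of −2.69 at 180 min, −2.88 at 12 h and −2.96 at 24 h, and neither change was called. In far-red light it had reached 773, 640 and 694 TPM at 180 min, against 106, 105 and 112 TPM in red. At 30 min it had 258, 323 and 268 TPM in far-red and 224, 242 and 202 TPM in red light. Both were above darkness at 30 min, with 142, 127 and 127 TPM. MpMLS5 was apart by 180 min and fell further in red after that. At 180 min it had 62.9, 61 and 62.2 TPM in red, against 184, 152 and 162 TPM in far-red light. At 24 h it had 0.41, 0.319 and 0.211 TPM in red, against 140, 138 and 169 TPM in far-red light.

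**Figure D5:**
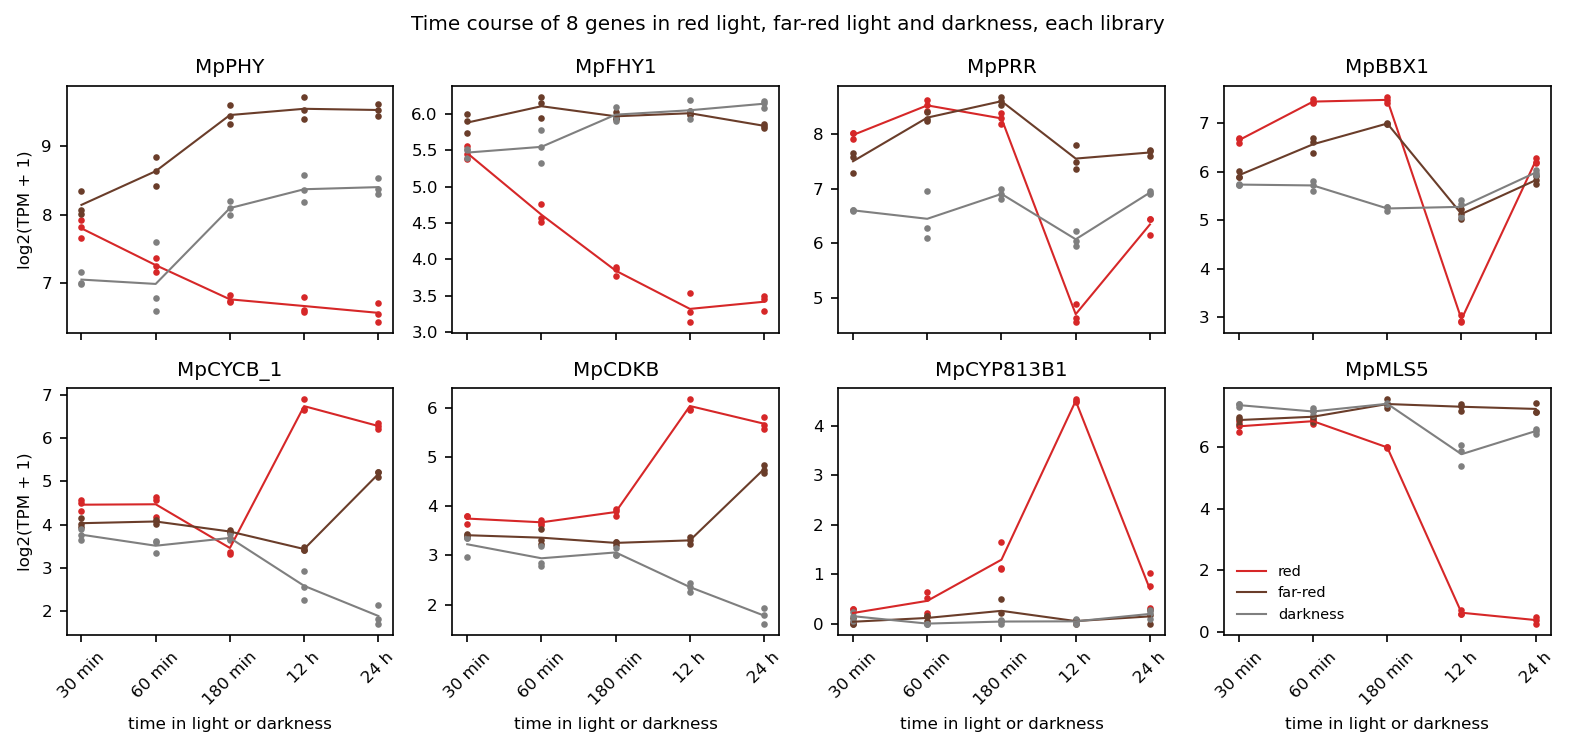
Level (log2(TPM + 1)) of 8 genes in each library of red light, far-red light and darkness at 30 min, 60 min, 180 min, 12 h and 24 h (times are evenly spaced on the axis, lines join means of 3 libraries). MpPHY and MpFHY1 separate by 180 min and stay apart, MpPRR and MpBBX1 dip in red at 12 h, MpCYCB_1 and MpCDKB go up in red by 12 h and in far-red by 24 h, and MpCYP813B1, of the plotted groups, is highest in red at 12 h.

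Set against darkness at 12 h, red light had 3173 called genes (24.3% of those tested; 13.2% higher and 11.1% lower) and far-red light 425 (3.26%; 2.21% higher and 1.04% lower). Both use the same 3 darkness libraries, and each shares its light libraries with the comparison of red with far-red. For the replication list 22 genes were above darkness in red and 9 in far-red light, and for the light receptor list 7 were below darkness in red and 0 in far-red light. Genes above darkness in far-red light among those named included MpPR1c (far-red minus darkness 4.21, red minus darkness −0.82), MpBHLH21 (2.27 and −1.09), MpDXS2 (2.22 and 0.38), MpKOL1 (2.01 and −1.47), MpLOG (2.00 and −0.84) and MpPRR (1.47 and −1.37). Genes near the darkness level in far-red light and below it in red included MpFHY1, MpPP2C_F3 (0.04 and −4.60), MpDIR39 (0.21 and −4.52) and MpPIN4 (0.19 and −1.70). Genes near the darkness level in far-red light and above it in red included MpPKS/CHS17 (0.11 and 3.75), MpFRO2 (0.06 and 3.52), MpGST17 (0.08 and 2.32) and MpAMT1.2 (0.11 and 1.74).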

How the data were processed

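Poly(A) RNA of 78 libraries was sequenced in paired reads of 150 bases. The authors deposited TPM per gene and library; STAR is named in the submitters' processing notes, with no version; the genome build, annotation and TPM program are likewise not given in the sources used here. TPM sums to 1000000 in every library, so depth is unknown and no counting interval is given; TPM also makes all values of a library relative to each other. Groups follow the labels, which state that the replicates of a treatment shared a plate. Beyond that and the words "biological replicate", nothing says how separate the cultures were. The p-values therefore measure the spread between samples of a shared plate. Symbols were looked up by locus tag in a RefSeq-derived table (assembly MpTak2_v7.1; 17384 of 18136 protein-coding tags matched, 3091 with a symbol, 2508 of these tested). The 61 numbers skipped by the identifiers include 59 that the name table skips too.

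Log2(TPM + 1) of genes with at least 1 TPM in 3 libraries was fitted for all 78 libraries with limma 3.58.1 in R 4.3.3 (1 mean per group, trended prior variance, 52 residual degrees of freedom), and p-values were adjusted over all 13054 genes by Benjamini-Hochberg. SE values come from the fit. The fit was tested on simulated data with known changes. Named genes are the 15 largest differences in each direction among called genes with a symbol and groups that do not overlap, the 2 largest without a symbol, up to 2 called members per direction of each list, and all light receptor and growth-phase genes. The members and the 40 gene lists were chosen with earlier results of these data known. Another deposited table of group means was not used. Promoter and protein sequences were not used here.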

Additional observations from a re-analysis of the deposited data

Results flagged for a closer look

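The red minus far-red difference depended on time, by limma's test of the change of the difference (adjusted p under 0.05 and a change of at least 1 on the log2 scale). It changed between 180 min and 12 h in 971 genes, and between 12 h and 24 h in 541 genes. Among the named genes, 12 had a larger difference at 12 h than at both neighbouring times. Of those higher in red, MpCYP813B1 changed by 3.42 (12 h minus 180 min) and −3.91 (24 h minus 12 h), MpCYCB_1 by 3.68 and −2.19, MpPPO17 by 2.45 and −1.10, MpLEA-like49 by 1.86 and −1.57, and MpCDKB by 2.10 and −1.81. MpNPF34 changed by 1.71 and −1.27, MpSAUR4 by 2.11 and −1.37, and MpAMT1.2 by 1.33 and −1.30. Of those lower in red, MpGST16 changed by −1.66 and 1.54, MpBBX1 by −2.66 and 2.57, MpPRR by −2.53 and 1.53, and MpLEAL7 by −2.90 and 3.10. MpBBX1 is the gene among these whose difference was positive at 180 min (0.49) and at 24 h (0.40) and negative at 12 h (−2.17). Each group has 3 libraries, so no single library was tested as an outlier.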

How the results depend on the processing

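All results rest on TPM of unknown depth, on 3 libraries per light from 1 plate each, and on a threshold of 1 in log2(TPM + 1). The counts of genes higher and lower in red at 12 h stayed within a factor of 1.5 under TMM or quantile scaling, pseudocounts of 0.1 or 5 TPM, other filters, fits of fewer libraries, the replicate block and libraries left out, at 823 to 1516 and 848 to 1691 genes. With libraries left out they were 1205 to 1261 and 1229 to 1310. With no fold threshold they were 4593 and 5088, and with a threshold of 2 they were 261 and 262. TMM scaling moved the share of higher genes among the calls to 52.2%, against 49.3% without it.

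The counts of genes whose difference changed with time depended more on the settings, some of which were added after the data were seen. From 180 min to 12 h, a pseudocount of 5 TPM gave 328 higher and 188 lower, a mean of at least 5 TPM gave 421 higher, no fold threshold gave 2841 and 3283, and a threshold of 2 gave 110 and 46. From 12 h to 24 h, a pseudocount of 5 TPM gave 115 higher and 150 lower, a pseudocount of 0.1 TPM gave 383 higher, no fold threshold gave 1973 and 3316, and a threshold of 2 gave 18 and 45. Leaving out libraries gave 632 to 722 higher and 313 to 403 lower from 180 min to 12 h, and 220 to 276 higher and 287 to 356 lower from 12 h to 24 h. The cause of these shifts was not tested beyond the construction of each setting.

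Whether replicate numbers paired the samples is unclear. Deviations of same-numbered red and far-red libraries correlated with r of 0.337, 0.0246 and 0.136. Those of differently numbered libraries had r between −0.258 and 0.17. Each library correlated best with its own number except red replicate 2 and far-red replicates 2 and 3. With the replicate block the counts at 12 h were 1225 and 1261 in all libraries and 1231 and 1262 in the 6 libraries alone, and the counts of changes with time were 643, 328, 243 and 298.

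Of the 131 called named genes 21 lost their call under some alternative and 0 changed sign. Of these, 19 did so with a pseudocount of 5 TPM, among them MpKOL3, MpGCAM1, MpERF15, MpCER3b and MpCYCD_2. A search of promoters for motifs was not run.

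Some counts of called list members moved by more than 1.5 times. With a pseudocount of 5 TPM, 11 class III peroxidases were higher, 5 cytochromes P450 were lower, 3 cupins were higher and 2 terpene synthases were higher. With a pseudocount of 0.1 TPM, 42 class III peroxidases, 26 cell wall hydrolases, esterases and lyases, 10 expansins and 5 ammonium transporters were higher.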
